A study of Homo sapiens with 6 samples.

Results

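The 10 genes described here encode the proteins that small nucleolar RNAs (snoRNAs) need to become working particles, the snoRNPs. They were taken by symbol from a list: NOP56, NOP58, FBL and SNU13 of the box C/D particles, DKC1, NHP2, NOP10 and GAR1 of the H/ACA particles, and NOLC1 and NAF1, which act in assembly and traffic. All 10 were found among the 60664 genes of the count tables, and all 10 passed the filter on low counts that left 14673 genes to test. Their level in D283 Med cells, a human Group 3 medulloblastoma line with an amplified MYC gene, was compared between 3 libraries from cells transfected with a scrambled LNA GapmeR (SCR, the controls) and 3 from cells transfected with a GapmeR against the long non-coding RNA lncMB3 (KD, the knockdown). A GapmeR is a short antisense oligonucleotide that recruits RNase H to the RNA it pairs with. Cells of both groups were transfected, and the labels set them apart only as SCR or KD. All libraries come from 1 cell line. Loss of lncMB3 and other effects of the oligonucleotide cannot be told apart.

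A box C/D snoRNA pairs with ribosomal RNA and places fibrillarin, the methyltransferase encoded by FBL, at a single nucleotide to methylate its ribose. An H/ACA snoRNA does the same for dyskerin, the pseudouridine synthase encoded by DKC1, which turns a uridine into pseudouridine. Some box C/D particles, above all the U3 particle, instead help to fold and cut the ribosomal precursor. In fast-growing cells with high MYC activity, genes of this machinery are known to be strongly expressed.

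Total counts ran from 7765826 in knockdown library 1 to between 17072573 and 20035834 in the other libraries, so the lowest gene of the set, NAF1, still had 204 counts in the shallowest library. The level of lncMB3 itself was not analysed here, since no label names its gene identifier, and directions rest on the group labels. No label says that replicates were separate cultures. The p-values set the difference between groups only against the scatter between these libraries, and that scatter may be technical. All 8 markers of the line and its tumour subgroup were above 1 CPM (counts per 1000000 counts of the scaled library). In the knockdown 5 of the 8 fell, OTX2, CRX, NRL, NEUROD1 and IMPG2, with log2 changes from -0.28 for OTX2 to -1.07 for NEUROD1, while GABRA5 rose by 0.41 and MYC and NPR3 did not pass the test. Their part in the results was not tested. Of 18 markers of immune, endothelial, mesenchymal, epithelial and glial cells 2 were above 1 CPM, COL1A1 and PDGFRB, and 5 were at 0 in every library, among them CD3E, CDH5 and MBP. The 18 summed to 35.3 to 39.6 CPM in the controls and 27.8 to 33.7 CPM in the knockdown, and this too was not tested against the results. CPM gives a gene's share of a library, so a change in all RNA of a cell would not show.

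Of the 10 genes 8 rose in the knockdown and 0 fell, while of all tested genes 15.9% were higher and 15.9% lower at the same adjusted p of 0.05, 31.7% in all. The median log2 change of the 10 was 0.45, against 0.00 over all tested genes. GAR1 had the largest change, 1.68-fold, and FBL the smallest, 1.11-fold. Only FBL and NHP2 did not pass the test. Every knockdown library lay above every control in 8 of the 10, the same 8 that passed the test, so this adds no separate support. Of all tested genes 22.9% showed this pattern in this direction, 23.1% in the other and 46.0% in either. The changes were modest, with 2 of the 10, GAR1 and NOP58, above 1.5-fold.

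Several of these proteins are encoded by genes that also carry snoRNAs in their introns, and the sequences below are shown because they are the ligands that the proteins bind. In the annotation 11 snoRNA genes lie inside 3 of the members, all in introns of the principal transcript and on the same strand. NOP56 holds 5, NOP58 holds 4 and DKC1 holds 2. Of these, 8 are of the box C/D kind, 71 to 90 bases long, and 3 of the H/ACA kind, 129 to 132 bases long. Capitals mark TGATG or TGATGA, the core of box C, and the last CTGA, box D, searched within 25 bases of each end on the transcribed strand. All 8 box C/D sequences held both. NOP56, a box C/D protein, hosts the 4 box C/D snoRNAs shown here and 1 H/ACA snoRNA, SNORA51.
SNORD110: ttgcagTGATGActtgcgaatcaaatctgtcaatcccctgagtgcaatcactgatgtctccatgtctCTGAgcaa
SNORD86: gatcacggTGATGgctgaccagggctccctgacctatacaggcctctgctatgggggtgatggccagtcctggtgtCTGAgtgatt
SNORD56: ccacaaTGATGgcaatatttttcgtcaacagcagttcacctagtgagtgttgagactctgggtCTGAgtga
SNORD57: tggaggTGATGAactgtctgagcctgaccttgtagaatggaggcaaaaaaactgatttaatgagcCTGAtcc

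NOP58, the partner of NOP56, hosts only box C/D snoRNAs, of which 2 are shown with the same marks.
SNORD70: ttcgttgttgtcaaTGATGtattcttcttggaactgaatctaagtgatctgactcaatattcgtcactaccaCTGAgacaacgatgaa
SNORD11: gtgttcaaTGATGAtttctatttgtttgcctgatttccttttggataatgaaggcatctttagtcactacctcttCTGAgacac

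DKC1, the H/ACA enzyme, hosts H/ACA snoRNAs. In these, capitals mark ACA near the 3′ end and, in SNORA56, the only ANANNA match in its middle part, the letters of box H. SNORA36A had 2 such matches and none is marked.
SNORA36A: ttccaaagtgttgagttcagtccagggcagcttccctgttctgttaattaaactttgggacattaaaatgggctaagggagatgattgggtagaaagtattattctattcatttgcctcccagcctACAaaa
SNORA56: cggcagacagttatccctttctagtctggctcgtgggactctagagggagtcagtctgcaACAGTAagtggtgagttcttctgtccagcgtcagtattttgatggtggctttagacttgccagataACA
The sequences are those of GENCODE release 29 on GRCh38. All 11 snoRNA genes were listed at 0 in all 6 libraries. A count of 0 allows up to 3 counts in a library, or 0.386 CPM in the shallowest and 0.15 CPM in the deepest. Mature snoRNAs carry no poly(A) tail, and these libraries were made from polyadenylated RNA. Among 942 snoRNA genes, 66 had a count in any library and 2 passed the low-count filter. The data therefore describe the host messenger RNAs and not the snoRNAs.

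The scaffold proteins of the box C/D particle rose. NOP56 (chromosome 20, 2652145 to 2658393, plus strand), which bridges FBL and SNU13 in the particle, was at 421, 338 and 335 CPM in SCR libraries 1 to 3 (controls 1 to 3) and at 532, 556 and 526 CPM in KD libraries 1 to 3. All knockdown libraries lay above all controls, with control 1 nearest to them. Its mean went from 365 ± 49.2 to 538 ± 15.7 CPM (SD, n = 3 each), a log2 change of 0.56 ± 0.10 (SE, adjusted p = 0.000907). NOP58 (chromosome 2, 202265716 to 202303666, plus strand), its related partner in the scaffold, was at 212, 173 and 137 CPM in SCR libraries and 239, 292 and 261 CPM in KD libraries. Its controls were the most scattered of the set, with a coefficient of variation of 21.7%. The mean went from 174 ± 37.8 to 264 ± 26.8 CPM, or 1.52-fold (adjusted p = 0.00339). Without control 3 its log2 change was 0.46 in place of 0.60, still past the threshold.

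Of the other subunits of that particle SNU13 rose and FBL did not pass the test. FBL (chromosome 19, 39834458 to 39846414, minus strand), the methyltransferase, was at 434, 421 and 422 CPM in SCR libraries and 463, 519.8 and 433 CPM in KD libraries. Knockdown library 3 lay just below control 1, so the groups overlapped. The controls differed little, with a coefficient of variation of 1.69%, against 9.36% in the knockdown. The change was 1.11-fold with a 95% interval of 0.974 to 1.26 (adjusted p = 0.209), which does not show that FBL was unaltered and whose upper bound lies below the 1.48-fold of NOP56. SNU13 (chromosome 22, 41673930 to 41690504, minus strand), which binds the kink-turn formed by boxes C and D and also sits in the U4/U6 spliceosomal particle, was at 176, 157 and 151 CPM in SCR libraries and 201, 218 and 187 CPM in KD libraries. Its groups did not overlap. The rise was 1.25-fold, from 161 ± 12.9 to 202 ± 15.3 CPM (adjusted p = 0.0134), and missed the threshold without control 2 (adjusted p = 0.0728) or control 3 (adjusted p = 0.063).

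**Figure D1:**
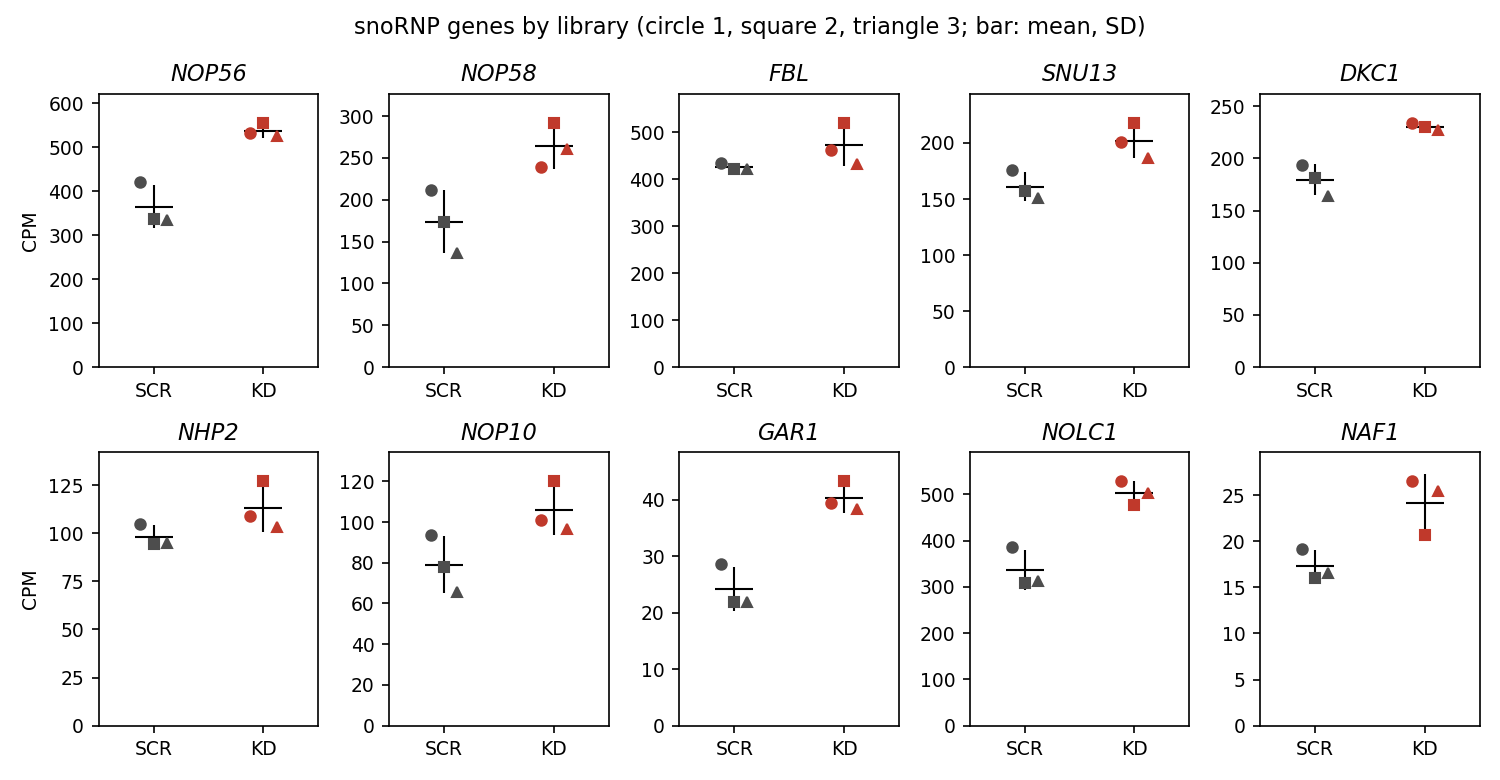
Level in CPM (vertical axes, each from 0) of the 10 snoRNP genes in the 3 SCR and 3 KD libraries, with the mean and SD of each group. The groups are apart in 8 panels and overlap for FBL and NHP2, and control 1 (circle) is the highest control in all 10.

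In the H/ACA particle the enzyme rose, with little scatter in the knockdown. DKC1 (chromosome X, 154762742 to 154777689, plus strand), the pseudouridine synthase, also held by telomerase and mutated in dyskeratosis congenita, was at 194, 181 and 164 CPM in SCR libraries and 234, 229.7 and 227 CPM in KD libraries. The knockdown libraries agreed closely (coefficient of variation 1.39%, against 8.31% in the controls), and all lay above the controls. Its mean went from 179.7 ± 14.9 to 230.3 ± 3.2 CPM, a log2 change of 0.36 ± 0.08 (adjusted p = 0.00581). NHP2 (chromosome 5, 178149460 to 178153967, minus strand), a relative of SNU13 that stabilises the particle on its RNA, was at 105, 94.4 and 95.2 CPM in SCR libraries and 109, 127 and 103 CPM in KD libraries. The groups overlapped, since knockdown library 3 lay below control 1. The log2 change was 0.21 with a 95% interval of 0.01 to 0.41 and did not pass after adjustment (adjusted p = 0.108).

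Of the other H/ACA subunits both NOP10 and GAR1 rose. NOP10 (chromosome 15, 34341713 to 34343177, minus strand), a short protein that binds the catalytic domain of dyskerin, was at 93.5, 78.0 and 65.7 CPM in SCR libraries and 101, 120 and 96.5 CPM in KD libraries. The groups did not overlap, though control 1 came within 2.99 CPM of the lowest knockdown library. It rose 1.34-fold (adjusted p = 0.0158), and the call was lost without control 2 (adjusted p = 0.0612), control 3 (adjusted p = 0.0763) or knockdown library 2 (adjusted p = 0.071). GAR1 (chromosome 4, 109815510 to 109824740, plus strand), which helps the mature particle load and release its substrate, was at 28.7, 21.9 and 21.9 CPM in SCR libraries and 39.4, 43.3 and 38.4 CPM in KD libraries. Each knockdown library was well above the highest control. Its mean went from 24.2 ± 3.93 to 40.4 ± 2.63 CPM, a log2 change of 0.75 ± 0.11 (adjusted p = 0.000406), which exceeded 97.6% of all tested genes.

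The assembly and traffic proteins rose as well. NAF1 (chromosome 4, 163110073 to 163166921, minus strand) holds the place of GAR1 in the immature H/ACA particle and is exchanged for it in the nucleus. It was at 19.2, 16.0 and 16.6 CPM in SCR libraries and 26.5, 20.7 and 25.4 CPM in KD libraries. Knockdown library 2, the highest for 7 of the 10 genes, was the lowest here, but still above control 1. The rise was 1.39-fold (adjusted p = 0.00755). NOLC1 (chromosome 10, 102152176 to 102163871, plus strand), a heavily phosphorylated chaperone of the nucleolus and Cajal bodies that binds both kinds of particle, was at 386, 309 and 313 CPM in SCR libraries and 528, 476 and 502 CPM in KD libraries. The groups were far apart, and its mean went from 336 ± 42.9 to 502 ± 25.8 CPM, or 1.49-fold (adjusted p = 0.000758).

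Whether the members moved by the same amount was examined with ratios of counts inside each library, a measure that needs no scaling between libraries. An exact two-sided permutation test of 3 against 3 libraries cannot go below p = 0.1. Benjamini-Hochberg adjustment over the 8 ratios gave 0.2 for the smallest. With this test unequal change could therefore not pass the threshold. No other test of the ratios was run, and they are given as a description. How often ratios of other gene pairs leave the groups apart was not counted. Among single tested genes the groups did not overlap in 46.0%, counting either direction, so separation alone does not show unequal change. The ratio of NOP56 to FBL was 0.971, 0.803 and 0.792 in SCR libraries and 1.15, 1.07 and 1.22 in KD libraries. NOP56 had fewer counts than FBL in every control and more in every knockdown library, and the exact p was the smallest possible, 0.1. The ratio of GAR1 to NHP2 was 0.273, 0.232 and 0.23 in SCR libraries and 0.363, 0.341 and 0.371 in KD libraries, again without overlap (exact p = 0.1). GAR1 to DKC1 gave 0.148, 0.121 and 0.133 against 0.169, 0.189 and 0.169, also without overlap (exact p = 0.1).

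Other pairs of partners kept overlapping ratios. NOP56 to NOP58, the scaffold pair, was 1.98, 1.95 and 2.45 in SCR libraries and 2.23, 1.9 and 2.02 in KD libraries (exact p = 0.7). NOP10 to DKC1 was 0.481, 0.432 and 0.4 against 0.431, 0.522 and 0.424 (exact p = 0.7). GAR1 to NAF1, the mature subunit to its placeholder, was 1.49, 1.37 and 1.32 against 1.49, 2.09 and 1.51, where knockdown library 2 stood apart (exact p = 0.2). NOP58 to SNU13 overlapped too (exact p = 0.2). With 3 libraries a group, these p-values do not show that the ratios were equal. Within the set the mean profile of the box C/D core and that of the H/ACA core were close in every library, at -0.04, -0.24 and -0.34 in the controls for box C/D and -0.04, -0.26 and -0.35 for H/ACA (log2 CPM relative to each gene's mean), and at 0.16, 0.32 and 0.14 against 0.18, 0.33 and 0.13 in the knockdown.

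**Figure D2:**
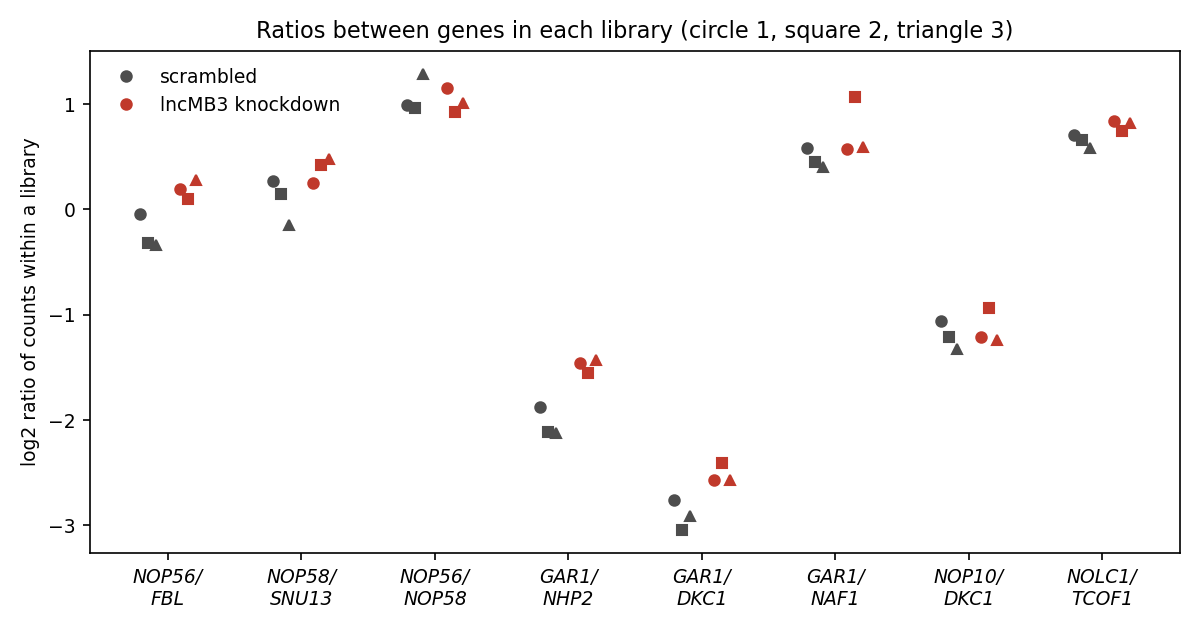
Log2 ratio of counts (vertical axis) for 8 pairs of genes (horizontal axis) in each library. The groups are apart for NOP56/FBL, GAR1/NHP2, GAR1/DKC1 and NOLC1/TCOF1 and overlap for the other 4 pairs. How often they are apart for other pairs of genes was not counted.

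Levels were compared between genes per length, as CPM per kb of the principal GENCODE transcript. In the controls FBL was the highest at 367 ± 6.21 CPM per kb, followed by NOP56 at 152 ± 20.5, NOP10 at 143 ± 25.1, NHP2 at 113 ± 6.78 and SNU13 at 107 ± 8.57 CPM per kb. NOLC1 at 85.5 ± 10.9, NOP58 at 85.1 ± 18.5 and DKC1 at 69.8 ± 5.8 CPM per kb came next, with GAR1 at 19.7 ± 3.21 and NAF1 at 9.05 ± 0.894 CPM per kb far below. FBL, GAR1 and NAF1 each stood apart from their neighbours in this order, whereas neighbours among NOP56, NOP10, NHP2 and SNU13 overlapped in their ranges over the control libraries, as did neighbours among NOLC1, NOP58 and DKC1. The messenger for GAR1 was therefore the least abundant per length of the 8 core subunits in both groups, at 33.0 ± 2.15 CPM per kb in the knockdown, and also the most raised. In the knockdown NOP56, at 224 ± 6.56 CPM per kb, no longer overlapped NOP10, at 191 ± 22.7 CPM per kb. The gap was narrow, with the lowest NOP56 library at 219 and the highest NOP10 library at 217 CPM per kb. These levels rest on 1 transcript length per gene and would shift where another isoform dominates.

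**Figure D3:**
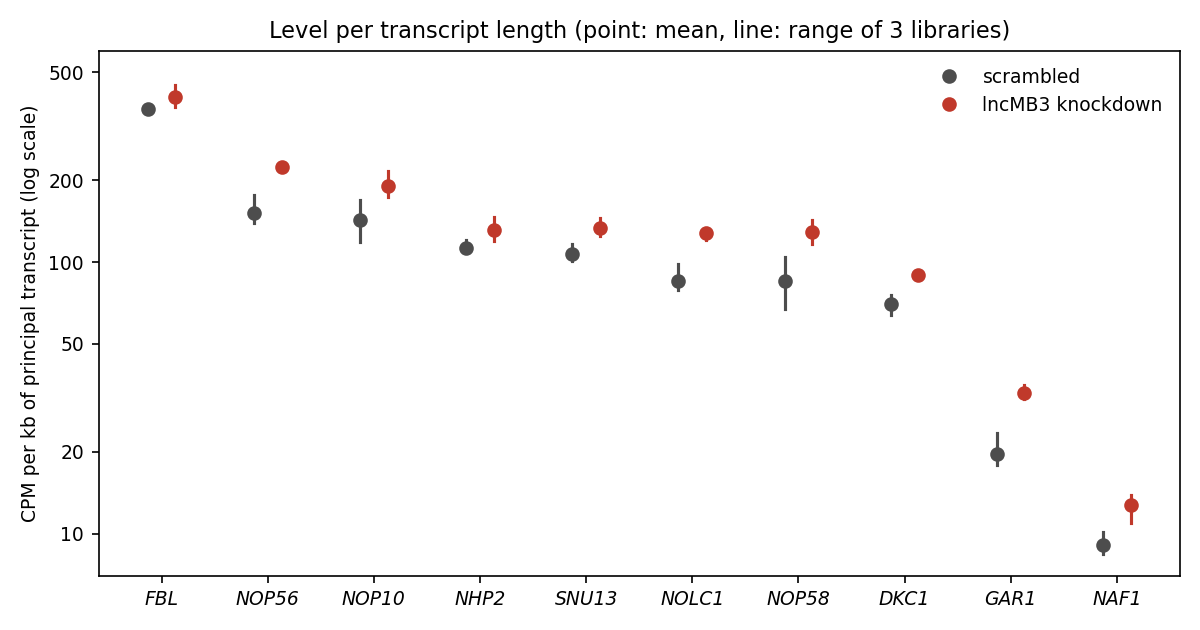
Mean level in CPM per kb of principal transcript (vertical axis, log scale) with the range over 3 libraries for each snoRNP gene (horizontal axis, ordered by the control mean). FBL is highest at 367 and 407 CPM per kb in controls and knockdown, and GAR1 and NAF1 are lowest.

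Other genes of the snoRNA pathway, taken from 9 lists with 68 genes, moved mostly the same way. Of 66 that were tested 44 rose and 1 fell, against 15.9% higher and 15.9% lower over all tested genes, with a median log2 change of 0.36. With upper-quartile scaling 37 rose and 1 fell. The 2 genes left out were ASDURF, with at most 17 counts, and TERC, the telomerase RNA, listed at 0 in every library. In libraries made from polyadenylated RNA this 0 does not show that TERC was absent. Proteins of the U3 particle, which acts in the first cuts of the ribosomal precursor, all rose, 4 of 4 with a median of 0.63. RRP9, the U3-specific binding protein, went from 73.0 ± 13.2 to 119 ± 5.23 CPM (1.64-fold, adjusted p = 0.000474), and MPHOSPH10, a partner of U3, rose 1.69-fold (adjusted p = 0.00108). IMP3 and IMP4, which bind MPHOSPH10, rose 1.46-fold and 1.4-fold.

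Among 10 assembly factors of snoRNPs 6 rose and 0 fell, with a median of 0.42. The shares over all tested genes were 15.9% higher and 15.9% lower. SHQ1, the chaperone that holds dyskerin before it meets an RNA, was at 27.3, 22.2 and 21.5 CPM in SCR libraries and 34.3, 33.5 and 35.3 CPM in KD libraries (1.46-fold, adjusted p = 0.00173). NOPCHAP1, which links NOP58 to the assembly ATPases, rose 1.45-fold (adjusted p = 0.0011), and RUVBL1, one of those ATPases, 1.37-fold (adjusted p = 0.00203). PIH1D1, the adaptor of the same R2TP complex, had a log2 change of -0.05 with a 95% interval of -0.24 to 0.14 (adjusted p = 0.703). In the prefoldin-like module bound to R2TP 4 of 7 tested genes rose and 0 fell, with a median of 0.24, led by PFDN2 (1.53-fold, adjusted p = 0.00119), DNAAF10 (1.41-fold) and PFDN6 (1.27-fold, adjusted p = 0.0578 without control 2), while UXT had a log2 change of 0.04 (adjusted p = 0.847).

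Genes of snoRNA processing and transport gave 8 rises and 0 falls among 12, with a median of 0.33. Over all tested genes the shares were again 15.9% higher and 15.9% lower. COIL, coilin, the scaffold of Cajal bodies through which snoRNPs pass, was at 54.6, 48.8 and 47.8 CPM in SCR libraries and 72.7, 75.3 and 73.9 CPM in KD libraries (1.47-fold, adjusted p = 0.000431). TGS1, which adds the trimethyl cap of U3 and similar RNAs, rose 1.49-fold (adjusted p = 0.000587), and NCBP1, a cap-binding protein, 1.47-fold (adjusted p = 0.00097). PARN, a deadenylase that trims H/ACA RNAs, had a log2 change of 0.15 (adjusted p = 0.255). In the U4/U6 spliceosomal particle, the other home of SNU13, 3 of 4 rose and 0 fell, with a median of 0.31. PRPF3 rose 1.4-fold (adjusted p = 0.00076), PPIH 1.28-fold and PRPF4 1.21-fold. The call was lost for PPIH without control 2, control 3 or knockdown library 2 (adjusted p up to 0.0672), and for PRPF4 with upper-quartile scaling and without control 2, control 3, knockdown library 1 or knockdown library 3 (adjusted p up to 0.176). PRPF31, which binds the U4 RNA together with SNU13 and resembles NOP56 and NOP58, had a log2 change of 0.22 (adjusted p = 0.0738).

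In a list of enzymes that modify ribosomal RNA beside the members, with some of their partner proteins, 10 of 13 rose and 0 fell. The median was 0.39, and over all tested genes 15.9% were higher and 15.9% lower. NOP2, a cytosine methyltransferase, was at 72.1, 57.6 and 47.1 CPM in SCR libraries and 126, 114 and 123 CPM in KD libraries, with a log2 change of 1.04 ± 0.12 (adjusted p = 9.01e-05). DIMT1, a dimethyladenosine transferase, rose 1.59-fold and FTSJ3, a 2′-O-methyltransferase that acts on RNA, 1.56-fold. RRP8, which methylates an adenine base, had a log2 change of 0.08 (adjusted p = 0.624). Pseudouridine synthases that work without a guide RNA, in contrast to dyskerin, gave 7 rises and 0 falls among 12, with a median of 0.34. PUS1 rose from 32.8 ± 4.56 to 54.6 ± 1.83 CPM (1.67-fold, adjusted p = 0.000224), PUS7 1.66-fold and RPUSD1 1.41-fold, while PUS10 had a log2 change of -0.04 (adjusted p = 0.883).

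Of the tested telomerase partners of dyskerin TERT was low, while WRAP53 had means of 13.9 CPM in the controls and 14.6 CPM in the knockdown. TERT, the reverse transcriptase, was at 2.34, 3.08 and 3.41 CPM in SCR libraries and 5.07, 4.59 and 3.96 CPM in KD libraries, without overlap (1.51-fold, adjusted p = 0.0357). Its call was lost with upper-quartile scaling, in DESeq2 and without control 1, control 2, knockdown library 1 or knockdown library 2 (adjusted p up to 0.0904 with a library left out). WRAP53, which brings H/ACA RNAs with a CAB box to Cajal bodies, had a log2 change of 0.07 (adjusted p = 0.651). TCOF1, treacle, a nucleolar relative of NOLC1, rose 1.35-fold (adjusted p = 0.00235). The ratio of NOLC1 to TCOF1 was 1.63, 1.58 and 1.5 in SCR libraries and 1.79, 1.68 and 1.76 in KD libraries, without overlap (exact p = 0.1). FBLL1, the paralog of FBL, was the 1 gene of the lists that fell. It was at 5.62, 10.7 and 8.997 CPM in SCR libraries and 5.07, 6.10 and 4.69 CPM in KD libraries (log2 change -0.67 ± 0.21, adjusted p = 0.0249). The call was lost without control 2, control 3, knockdown library 1 or knockdown library 3 (adjusted p up to 0.149). Control 1 overlapped the knockdown libraries for FBLL1, and FBL itself stood at 426 and 472 CPM in the same groups.

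**Figure D4:**
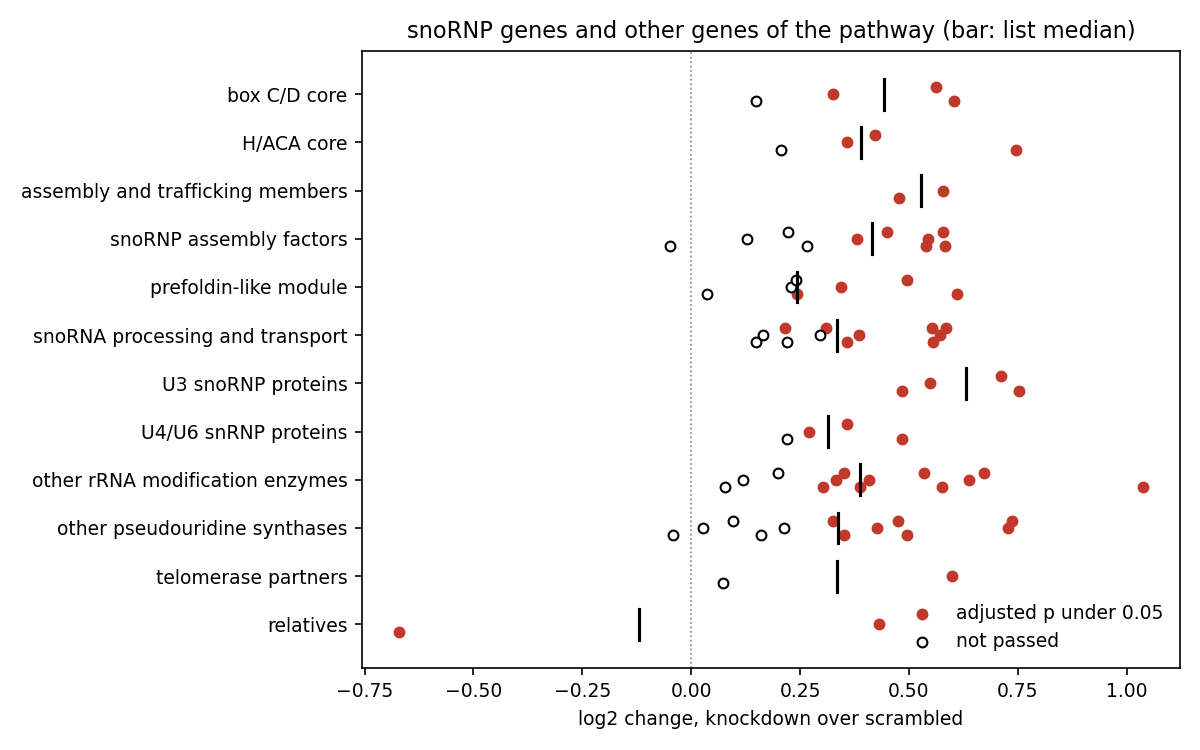
Log2 change in the knockdown over controls (horizontal axis) of each tested gene in 3 groups of snoRNP genes and 9 lists of other pathway genes (vertical axis), with the median of each list as a bar. Filled points passed an adjusted p of 0.05. Nearly all points lie right of 0, and FBLL1 is the filled point on the left.

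The genes whose profile over the 6 libraries lay nearest to the mean profile of the 10 members, out of 7491 with at least 20 CPM, were DDX24, POLE3, SNRNP40, NUMBL and MRM2, at distances of 0.0469 to 0.0578 on the log2 CPM scale. DDX24, a DEAD-box helicase, went from 144 ± 16.1 to 192 ± 6.25 CPM. POLE3 is a histone-fold subunit of DNA polymerase epsilon, SNRNP40 a protein of the U5 spliceosomal particle and MRM2 a methyltransferase of mitochondrial ribosomal RNA. All 5 were nearer to that mean than any member was, but they were picked as the smallest distances out of 7491. DKC1 was the nearest member at 0.16 and FBL the farthest at 0.428.

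RefSeq promoter sequences (GRCh38.p14) were found for 6 of the 10 members, NOP56, FBL, DKC1, NHP2, NOP10 and GAR1. The 250 bases before the starts used by RefSeq were searched for CACGTG. This is the E-box that MYC and its partner MAX bind, and it reads the same on either strand. The NOP56 window (2652382 to 2652631) lies wholly inside the gene as annotated here, so the bases before that gene were not searched. The windows of FBL, DKC1, NHP2 and NOP10 lie partly inside their genes. GAR1 was searched in a window before its gene and in another (109815512 to 109815761) wholly inside it. CACGTG was found for 1 of the 6 members, NOP10, compared with 6.34% of all 35116 promoters and 11.2% of tested genes with a promoter. NOP10 held it 2 times, 170 and 11 bases before the RefSeq start, and 0.535% of promoters held it at least 2 times. The stretch that lies outside the annotated gene is shown because it holds the first match (capitals, chr15:34343178-34343386, minus strand).
NOP10: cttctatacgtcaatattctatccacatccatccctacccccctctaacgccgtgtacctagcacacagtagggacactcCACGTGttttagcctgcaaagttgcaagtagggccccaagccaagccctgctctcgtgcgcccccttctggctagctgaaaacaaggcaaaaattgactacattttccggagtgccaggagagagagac
MYC had a log2 change of 0.03 (adjusted p = 0.826). A match is a run of letters and was not tested for binding.

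Neighbouring and copied genes could share reads with few members. The 5 pseudogenes annotated under the names of NOP56 and NHP2 had at most 3 counts in any library. Another processed pseudogene, without a member's name, lies in an intron of SNU13 on the same strand and had 4 to 13 counts. SNU13 overlaps at its edge C22orf46P on the other strand, which fell (log2 change -0.32, adjusted p = 0.013). The end of NHP2 overlaps RMND5B on the other strand, with a log2 change of -0.18 (adjusted p = 0.168). No source says that strand was used in counting, so the values of SNU13 and NHP2 are less certain than those of the other members. Of 37 other named genes 18 overlap the span of another tested gene, and their values are less certain too. For NOP2 and DNAAF10 the overlapping gene lies on the same strand, where use of strand would not separate them. The gene over NOP2 had means of 23.7 CPM in the controls and 21.9 CPM in the knockdown.

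Control 1 was the highest control for all 10 members, so it lay nearest to the knockdown libraries throughout. Without control 1 the same test gave 8 rises among the members, with a median of 0.56, and 5114 calls among all genes. Without control 2 it gave 6 rises and 2704 calls, and without control 3 it gave 6 rises and 2891 calls, in place of 8 and 4657. With upper-quartile scaling the calls over all genes were split into 1773 higher and 2803 lower, in place of 2328 and 2329, and the members gave 8 rises and a median of 0.39.

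**Figure D5:**
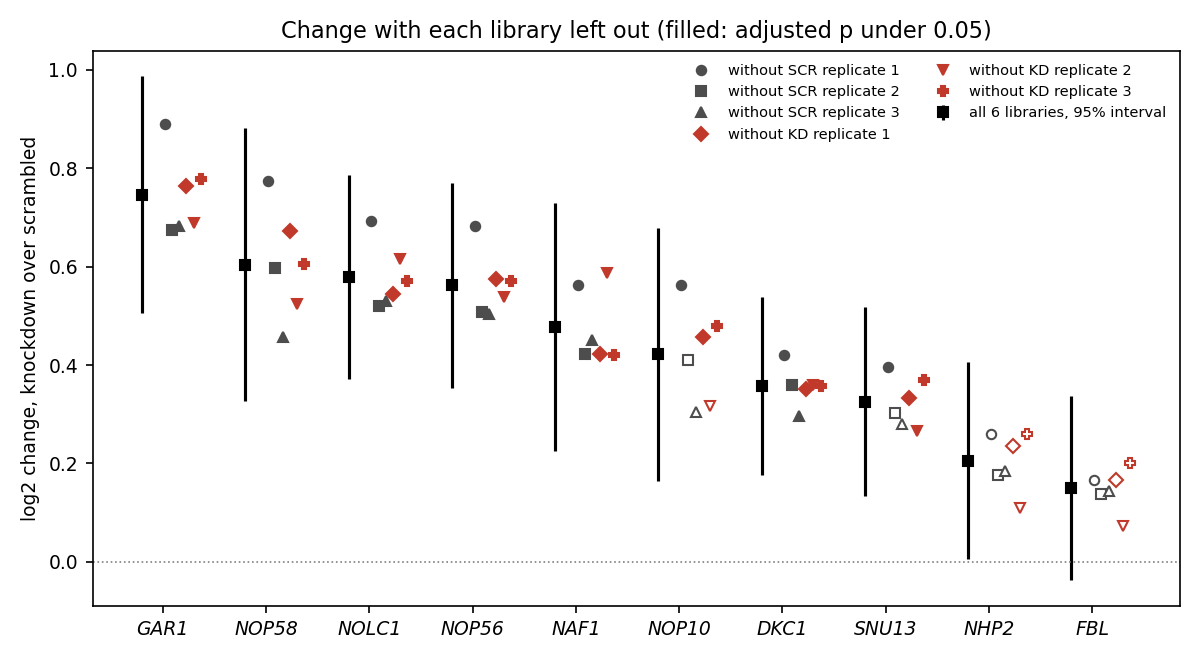
Log2 change in the knockdown over controls (vertical axis) of the 10 members (horizontal axis) with all 6 libraries, as squares with 95% intervals, and with each library left out, filled where the adjusted p is under 0.05. All values lie above 0, and the open symbols belong to FBL, NHP2, NOP10 and SNU13.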

How the data were processed

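Per the labels' protocols, RNA isolation used the miRNeasy Micro chemistry, and TruSeq Stranded mRNA libraries followed. Per the submitters' processing notes, the authors worked with STAR 2.7.9a, RSEM and Trim Galore 0.6.4 against the build GRCh38.p13. The annotation, the RSEM version and the use of strand were not given in the sources used here. The deposited files hold whole numbers for 60708 identifiers, read here as RSEM's expected counts rounded before deposit. RSEM splits reads between similar genes, which makes copies uncertain.

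The 44 pseudoautosomal Y copies were added to X. Symbols matched 60463 genes and GENCODE 29 coordinates 58396. Libraries of a group differed beyond sampling noise (2.69 to 15.2 as chi-square over degrees of freedom).

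Groups were compared with edgeR 4.0.16 in R 4.3.3 (filterByExpr, TMM, glmQLFit, glmQLFTest, no covariate), with 2-sided p-values adjusted by Benjamini-Hochberg over 14673 genes. SE is the log2 change over the square root of F, and intervals use the test's degrees of freedom. Alternatives were RLE and upper-quartile scaling, 2 filters, DESeq2 1.42.0, limma-voom 3.58.1, a replicate block, a threshold of 0.01 and each library left out.

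The members and lists were chosen with earlier results of these data known. Named were all members, and per list the 3 smallest and the largest adjusted p. Also named were the 5 nearest profiles by Euclidean distance of centred log2 CPM (prior count 2). Figures were drawn with matplotlib 3.10.9.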

Additional observations from a re-analysis of the deposited data

How the results depend on the processing

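All 130 log2 changes of the 10 members under the alternatives other than the stricter threshold were positive, as in the fit reported. In 5 of them a call was lost, for SNU13 and NOP10, and 0 were gained. The 8 rises among members held with RLE or upper-quartile scaling, without the low-count filter, with 1 CPM in 3 libraries, in DESeq2, in limma-voom and with the replicate block. Leaving out each library gave 6 to 8 rises and 0 falls, 30 to 46 rises and 0 to 1 falls among pathway genes, and 2704 to 5114 calls over all genes. At an adjusted p of 0.01 there were 6 rises and 0 falls among members, 2459 calls over all genes, 29 rises and 0 falls among pathway genes. The cause of these shifts was not tested, apart from the stricter threshold itself. The same alternatives were run for the 32 named pathway genes, a choice made after seeing the data. Of 25 that passed, 5 lost the call under some alternative, FBLL1, PFDN6, PPIH, PRPF4 and TERT, and PRPF31 passed without knockdown library 3. The sign turned in 3 that had not passed, with log2 changes of -0.14 to 0.00066 for PIH1D1, -0.15 to 0.071 for PUS10 and -0.15 to 0.12 for UXT when each library was left out, and of -0.021 for UXT with upper-quartile scaling. With the replicate block 4742 genes were called. Same-numbered libraries of the groups deviated together with r = 0.031, 0.096 and -0.033 over genes, and 2 of 6 libraries correlated best with their own number, so the numbers were not taken as pairs. Depth limits knockdown library 1 most.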
